A study of Caenorhabditis elegans with 20 samples.

Results

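The genes described here are the sperm genes of Caenorhabditis elegans that carry the names msp, spe, ssp or nspd: every row of the deposited count table whose gene name begins with one of these prefixes. The table holds 28301 rows, and 78 of them belong to the set, 34 msp, 20 spe, 12 ssp and 12 nspd genes. Every row with one of these prefixes is in, whatever its values. The choice of the prefixes themselves was made with earlier results of these data known. Of the 78 genes, 61 passed the filter on low counts and were tested, 30 msp, 18 spe, 5 ssp and 8 nspd. The 17 genes below the filter had at most 103 counts over all 20 libraries, and 3 of them had 0.

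RNA came from whole animals at the L4 larval stage, either wild type or mutant in nhr-131, which encodes a nuclear hormone receptor. The animals grew in liquid culture and were exposed for the last 4 h to F17 at 2.5 µM or to DMSO at 0.1%. The 4 groups were nhr-131 with F17, nhr-131 with DMSO, wild type with F17 and wild type with DMSO, with 5 libraries in each. F17 is known here only by its code. The labels give neither the nhr-131 allele nor the sex of the animals. Within a group the libraries are called a to e after the columns of the table.

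In a C. elegans hermaphrodite the germ line first makes sperm, during the L4 stage, and then switches to oocytes. Sperm genes are transcribed in the spermatocytes, and transcription stops before the sperm are finished. The msp genes encode the major sperm protein (MSP), whose filaments let the nematode's sperm crawl and which, once released, also signals to oocytes and to the gonadal sheath. The spe genes were named for mutants defective in spermatogenesis and act in organelle assembly, sperm activation, fertilisation or transcription. The ssp genes encode small sperm-specific proteins related to MSP, and nspd stands for nematode-specific peptide family, group D. RNA of whole animals sums over cells, so fewer cells making sperm and less sperm RNA in each of them cannot be told apart.

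Libraries held 12836432 to 26908383 counts, and 3 counts corresponded to 0.110 to 0.282 CPM, depending on the library, where CPM is a gene's count scaled to a fixed library size with TMM factors. This limit covers counting error only. nhr-131 itself had 77 to 196 counts in each wild-type library and 0 to 4 counts in each library labelled nhr-131. Ribosomal RNA genes took 2.24% to 27.5% of a library's counts. Animals in 6 libraries looked younger than the others by expression: library c in each of the 2 mutant groups, libraries a and d among the wild-type F17 libraries, and libraries a and c among the wild-type DMSO libraries. In these 6 libraries vit-2, a yolk protein gene switched on at adulthood, had 1.01 to 20.4 CPM, against 143 to 1335 CPM in the other 14. The 6 were picked on expression, are called younger-looking here, and are no group of the study. They are therefore set beside the other 14 as values, with no test, and results that rest on them are also given without them.

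The sperm genes took a small part of each library. All 78 together held 154832 counts over the 20 libraries, and their share of a library ran from 0.0158% to 0.102% of its counts. The msp genes contributed 104303 of these counts, the spe genes 35491, the nspd genes 9926 and the ssp genes 5112. In the RefSeq table of assembly WBcel235, where all 78 names were found, the 34 msp genes lie on chromosomes II (14 genes) and IV (20 genes). Over all 78 genes the numbers were 18 on chromosome I, 16 on II, 3 on III, 34 on IV, 7 on V and 0 on X. Of the msp genes, 23 have another msp gene among the 3 genes on either side. The msp copies are near-identical, and how reads matching several copies were counted is not given in these sources, and levels of single msp copies are uncertain. RefSeq lists 6 of the 78 as pseudogenes, of which msp-42 and msp-71 passed the filter with 321 and 682 counts.

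The summed msp level varied from library to library within every group, least in wild type with DMSO, where 4 of 5 libraries lay between 157 and 177 CPM. In nhr-131 with F17 the sums of libraries a to e were 375, 285, 116, 207 and 265 CPM. In nhr-131 with DMSO they were 271, 143, 45.1, 444 and 215 CPM. In wild type with F17 they were 198, 701, 482, 246 and 357 CPM, and in wild type with DMSO 171, 177, 157, 329 and 158 CPM. The group means were 250 ± 95.8 CPM in nhr-131 with F17, 224 ± 149 CPM in nhr-131 with DMSO, 397 ± 203 CPM in wild type with F17 and 198 ± 73.5 CPM in wild type with DMSO (SD, n = 5 each). All 4 groups overlapped. Library c of nhr-131 with DMSO was the lowest of the 20 and library b of wild type with F17 the highest.

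**Figure D1:**
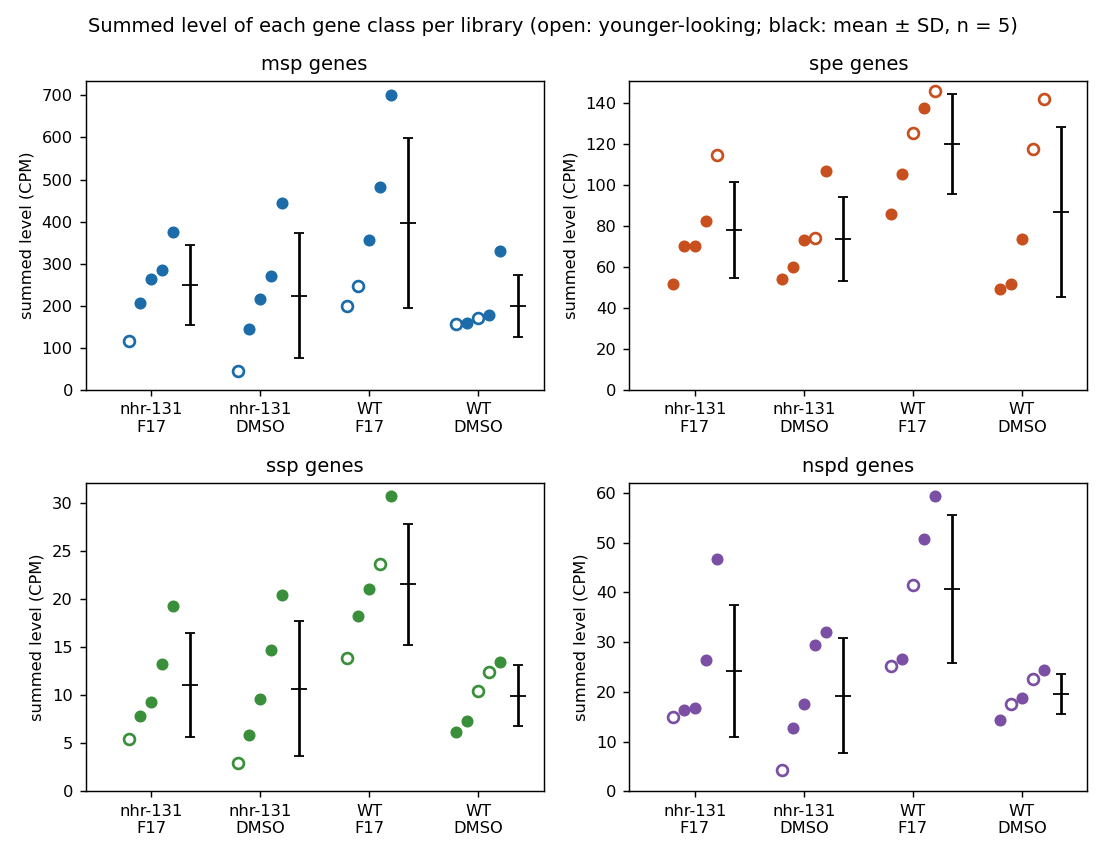
Summed level of each sperm gene class (CPM, linear axis from 0, 1 panel per class) in each of the 20 libraries by group; points are libraries, open ones the younger-looking libraries, and black bars the mean ± SD (n = 5). The msp sums span 45.1 to 701 CPM. The ssp and nspd sums of wild type with F17 all lie above those of wild type with DMSO, by narrow gaps.

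The msp genes moved together from library to library. Library c of nhr-131 with DMSO was the lowest of the 20 for 28 of the 30 msp genes tested, and library b of wild type with F17 was the highest for 28 of the 30. The exceptions at the low end were the neighbouring genes msp-78 and msp-79, with 1.09 CPM each in library a of wild type with F17. The exceptions at the high end were msp-71 and msp-74, which peaked in library c of wild type with F17. msp-81, the most counted msp gene, had 28.2, 22.5, 7.97, 19.9 and 20.1 CPM in nhr-131 with F17 and 29.7, 12.3, 2.53, 38.4 and 18.02 CPM in nhr-131 with DMSO. It had 17.2, 61.3, 39.4, 19.2 and 29.3 CPM in wild type with F17 and 13.1, 21.4, 10.3, 27.9 and 14.7 CPM in wild type with DMSO. The high and low libraries of this single gene were those of the class sum.

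**Figure D2:**
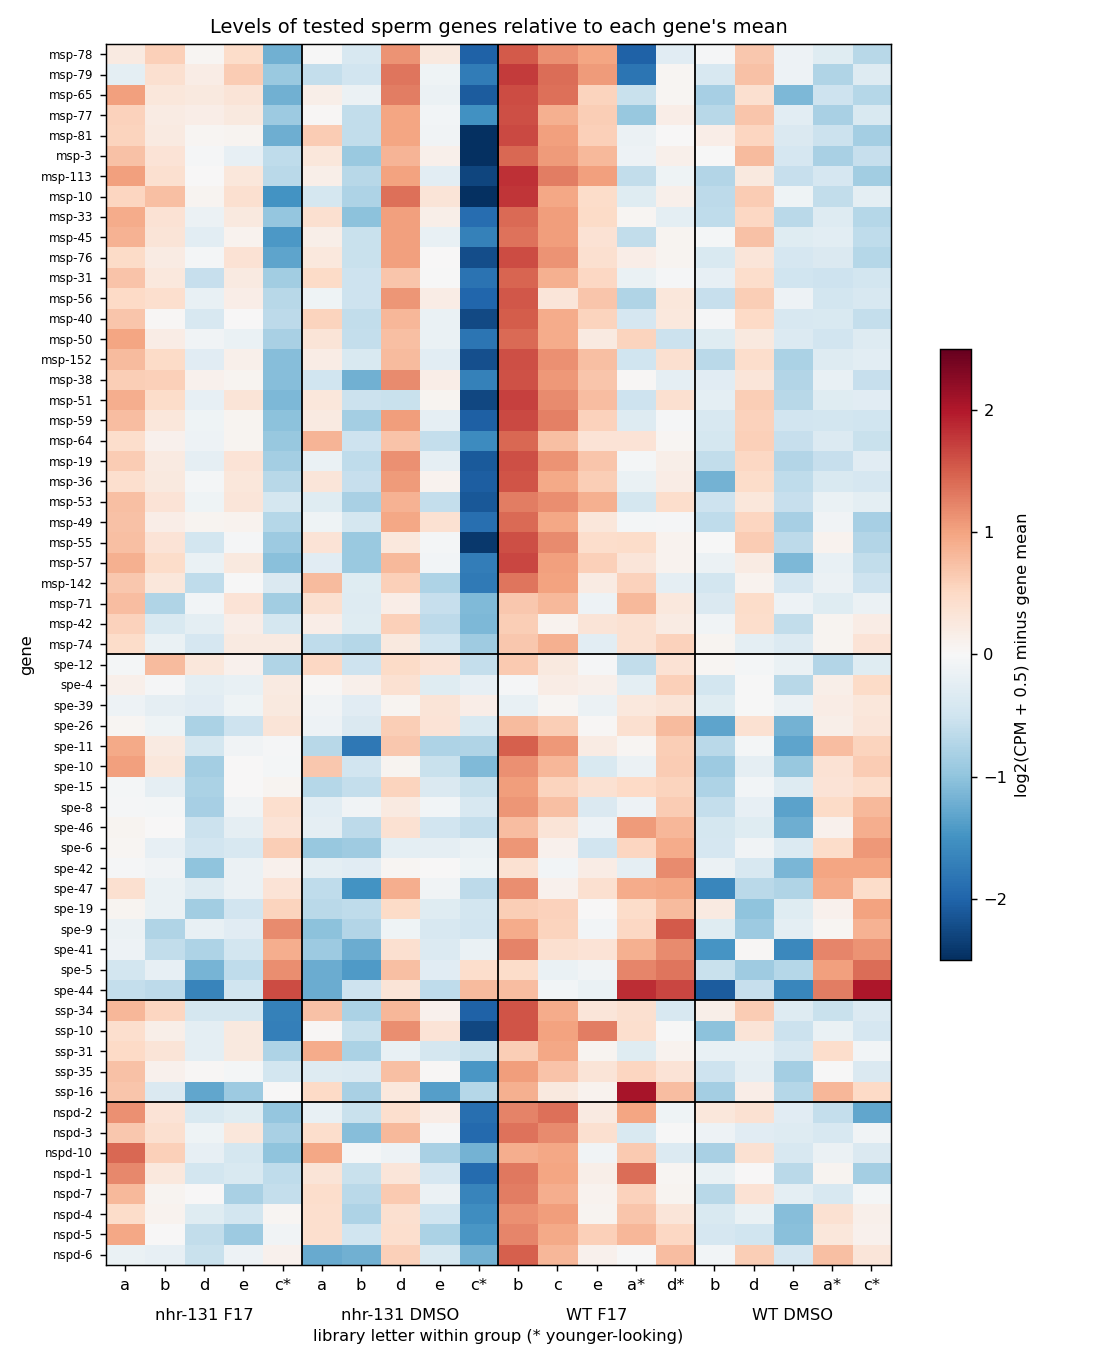
Levels of the tested sperm genes in each library, as log2(CPM + 0.5) minus the gene's mean over the 20 libraries (colour scale), with genes down the page by class and libraries across by group; asterisks mark the younger-looking libraries. The msp genes share their low column (nhr-131 with DMSO, c) and their high column (wild type with F17, b), while several spe genes are high in the younger-looking columns.

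The spe genes followed another pattern. Their sums were 82.5, 70.05, 115, 51.6 and 70.4 CPM in nhr-131 with F17 and 59.95, 54.2, 74.3, 107 and 73.2 CPM in nhr-131 with DMSO. They were 125, 138, 105, 146 and 85.96 CPM in wild type with F17 and 117, 49.1, 142, 73.8 and 51.6 CPM in wild type with DMSO. The means were 77.9 ± 23.4, 73.7 ± 20.5, 120 ± 24.4 and 86.9 ± 41.4 CPM in these groups (SD, n = 5 each). The 3 highest sums were those of libraries d and b among the wild-type F17 libraries and of library c among the wild-type DMSO libraries, so that 2 of the 3 were younger-looking.

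Of the spe genes, spe-44 followed the younger-looking libraries most closely; it encodes a transcription factor that acts early in spermatogenesis. Its level was 3.06, 2.93, 16.2, 1.22 and 3.33 CPM in nhr-131 with F17 and 1.79, 3.25, 8.81, 6.30 and 2.99 CPM in nhr-131 with DMSO. In wild type it was 18.8, 8.66, 4.67, 16.6 and 4.28 CPM with F17, against 12.6, 0.783, 21.4, 3.14 and 1.24 CPM with DMSO. In every group the younger-looking libraries were above all others. Of the 61 members spe-44 was the only gene with this order, which 13.2% of the 13795 genes tested also showed.

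Among the genes for the sperm's organelles, spe-5, which encodes a subunit of the vacuolar proton pump, had 8.45, 4.76, 2.92, 9.22 and 3.13 CPM in wild type with F17, against 7.37, 2.11, 9.59, 1.57 and 1.86 CPM in wild type with DMSO. In the mutant it had 2.29, 2.82, 8.16, 1.22 and 1.99 CPM with F17, against 1.13, 0.948, 4.72, 5.94 and 2.68 CPM with DMSO. The younger-looking libraries led in 3 groups, and in nhr-131 with DMSO library d was higher. spe-39, which encodes a vesicle-trafficking protein also used outside the germ line, was steady by comparison: its 20 values lay between 16.98 and 26.5 CPM. spe-10, which encodes a palmitoyltransferase, had at most 1.89 CPM.

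Among the genes of sperm activation, spe-4, a presenilin-family gene and the most counted of the 7 tested here, had 9, 7.99, 9.58, 6.77 and 7.07 CPM in nhr-131 with F17 and 8.38, 8.94, 6.996, 10.7 and 6.53 CPM in nhr-131 with DMSO. It had 6.80, 8.01, 9.30, 12.6 and 8.90 CPM in wild type with F17 and 9.09, 5.79, 11.6, 8.13 and 4.85 CPM in wild type with DMSO, and all groups overlapped. spe-12, a membrane protein gene of the activation pathway, had 1.25 CPM at most. spe-6, which encodes a casein kinase, had 2.14 to 5.13 CPM in nhr-131 with F17, 1.41 to 2.78 CPM in nhr-131 with DMSO, 2.14 to 7.42 CPM in wild type with F17 and 2.27 to 7.27 CPM in wild type with DMSO.

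Of the 3 tested genes that act when sperm meets egg, spe-41, a calcium channel gene, had 9.38, 12.02, 6.54, 11.6 and 6.21 CPM in wild type with F17, against 11.9, 1.41, 11.1, 4.94 and 1.24 CPM in wild type with DMSO. With DMSO the younger-looking libraries a and c were the 2 high ones, and with F17 library b was the highest. spe-9, which encodes a membrane protein with EGF repeats, reached 3.55 CPM and spe-42 reached 3.09 CPM, both in library d of wild type with F17. spe-11, a gene whose product the sperm brings into the egg, had 3.99 to 11.6 CPM in wild type with F17 and 1.24 to 6.85 CPM in wild type with DMSO. The myosin gene spe-15, needed to sort components as sperm bud off, had 26.8, 39.7, 28.1, 28.1 and 24.99 CPM in wild type with F17, against 24.04, 10.9, 25.9, 18.2 and 14.998 CPM in wild type with DMSO. In the mutant spe-15 had 18.2, 16.2, 19.99, 10.8 and 19.2 CPM with F17, against 11.4, 12.3, 12.8, 28.1 and 14.7 CPM with DMSO.

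The ssp sums were 19.3, 13.2, 5.47, 7.84 and 9.28 CPM in nhr-131 with F17, 14.7, 5.89, 2.91, 20.4 and 9.60 CPM in nhr-131 with DMSO, 23.6, 30.7, 21.1, 13.9 and 18.2 CPM in wild type with F17 and 12.4, 7.28, 10.45, 13.5 and 6.20 CPM in wild type with DMSO. The nspd sums were 46.6, 26.4, 14.9, 16.9 and 16.3 CPM in nhr-131 with F17, 29.5, 12.8, 4.30, 31.99 and 17.5 CPM in nhr-131 with DMSO, 41.5, 59.3, 50.7, 25.2 and 26.6 CPM in wild type with F17 and 22.7, 18.9, 17.6, 24.5 and 14.3 CPM in wild type with DMSO. For both classes every library of wild type with F17 was above every library of wild type with DMSO, while the mutant groups overlapped. The gaps were narrow, 13.9 against 13.5 CPM for ssp and 25.2 against 24.5 CPM for nspd. Gene by gene, 1 of 5 tested ssp and 1 of 8 tested nspd genes were higher without overlap, against 1.45% of all genes tested. 0 of these genes were called. How often sums of other gene sets separate in this way was not computed.

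The younger-looking libraries had less msp RNA for their spe RNA. The ratio of the summed spe counts to the summed msp counts of the same library was 0.593 to 1.65 in the 6 younger-looking libraries and 0.196 to 0.378 in the other 14, with no overlap. In nhr-131 the ratio was 0.989 in the younger-looking library with F17, against 0.220 to 0.266 in the other 4, and 1.65 in the one with DMSO, against 0.221 to 0.378. In wild type it was 0.633 and 0.593 with F17, against 0.196, 0.219 and 0.241, and 0.689 and 0.906 with DMSO, against 0.278, 0.224 and 0.326. The ratio is taken within a library and so does not depend on how libraries are scaled. Without spe-15 and spe-39, the 2 most counted spe genes, it was 0.369 to 0.839 in the younger-looking libraries and 0.105 to 0.172 in the others.

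**Figure D3:**
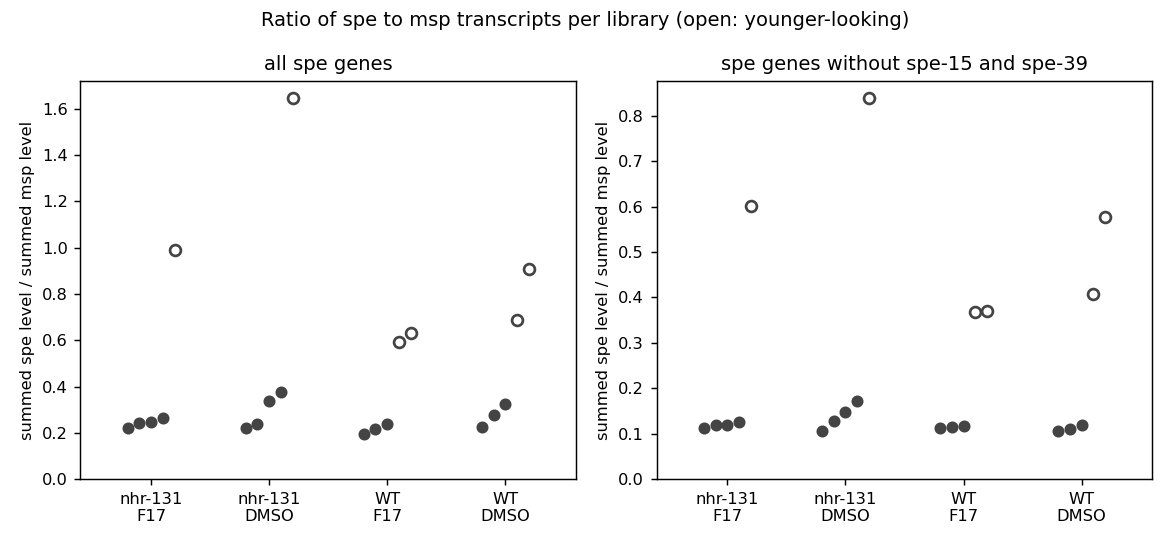
Ratio of summed spe to summed msp counts within each library (linear axis from 0), by group, with all spe genes (left) and without spe-15 and spe-39 (right); points are libraries and open ones the younger-looking libraries. At the left the 6 open points lie at 0.593 or higher and the 14 filled points at 0.378 or lower.

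Gene by gene the classes parted in the same way. The ratio of the median level in the younger-looking libraries to that in the others was below 1 for 29 of 30 msp genes (median 0.581), with msp-78 lowest at 0.372 and msp-74 the exception at 2.04. It was above 1 for 17 of 18 spe genes (median 1.94). spe-44 was highest at 5.29, followed by spe-5 at 3.77, spe-41 at 2.91 and spe-9 at 2.68, and spe-12 was the exception at 0.255. The ssp genes ranged from 0.461 for ssp-34 to 1.85 for ssp-16, with 4 of 5 below 1, and the nspd genes from 0.435 for nspd-2 to 1.39 for nspd-6, with 5 of 8 below 1. This ratio was not computed over all genes tested, so how common such splits are among other genes is not known here. It also pools the groups without allowing for genotype: the younger-looking libraries are mostly wild type and the others mostly nhr-131. The spe genes had a median log2 fold change of -0.27 in DMSO and -0.80 in F17 for nhr-131 over wild type. Within groups, 24 msp genes had all younger-looking libraries below all others in at least 3 of the 4 groups, and so did 1 spe, 2 ssp and 2 nspd genes, 29 of 61 members in all, against 25.4% of all genes tested. The opposite order in at least 3 groups was found for 5 spe genes, spe-5, spe-6, spe-39, spe-44 and spe-46. It was found for 0 genes of the other classes. That is 5 of 61 members and 5 of 18 spe genes, against 25% of all genes tested. The share of the spe genes was close to that of all genes. Low in all 4 groups were msp-3, msp-78 and msp-81, an order that 14.3% of all genes tested showed. In each mutant group the younger-looking side of these counts is 1 library. Library c of nhr-131 with DMSO was the lowest of all 20 for 28 of the 30 msp genes. The msp copies are near-identical and move together, so the counts of msp genes are not separate observations.

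**Figure D4:**
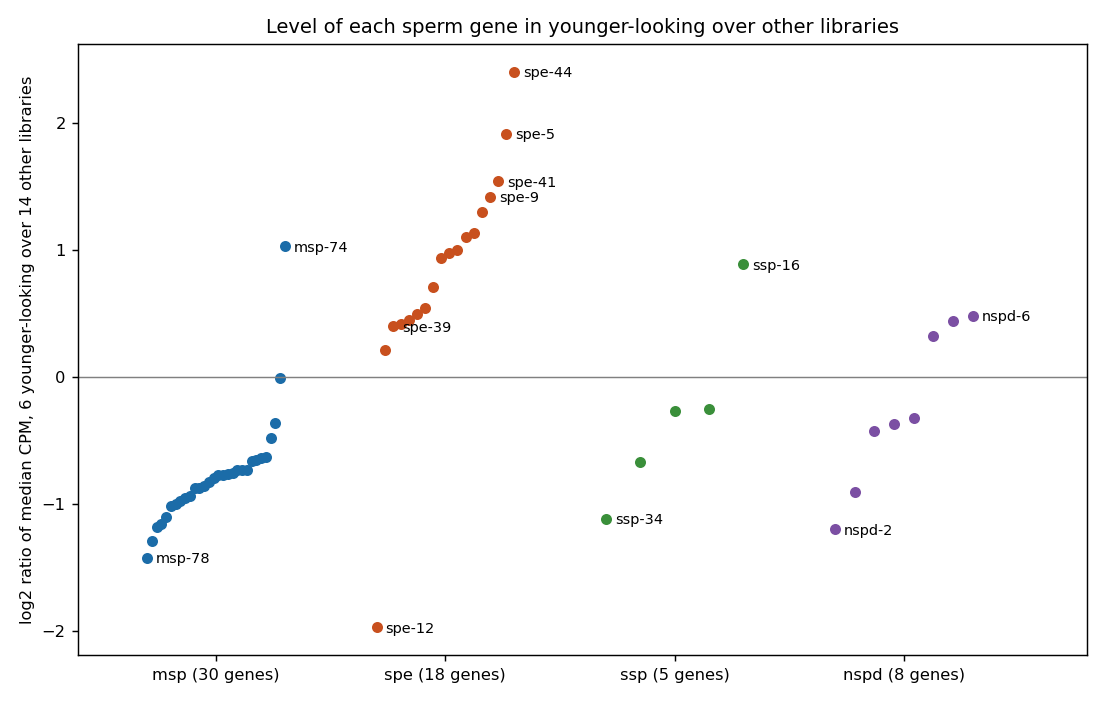
Log2 of the ratio of the median CPM in the 6 younger-looking libraries to the median in the other 14 for each tested sperm gene, by class; each point is a gene and the grey line at 0 marks equal medians. All msp genes but msp-74 lie below the line and all spe genes but spe-12 lie above it.

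Other germ-line genes also differed between the same libraries, in both directions. fog-3, which directs germ cells to the sperm fate, had 8.47 to 14.9 CPM in the younger-looking libraries and 0.393 to 2.38 CPM in the others. fog-1, which acts with it, had 11.8 to 20.5 and 1.32 to 6.71 CPM, and cpb-1, which encodes an RNA-binding protein needed for spermatocyte meiosis, had 31.5 to 42.2 and 1.49 to 19.8 CPM in the same order. fer-1, a ferlin gene for fusion of sperm organelles, had 20.8 to 48.3 CPM in the younger-looking libraries and 2.58 to 17.8 CPM in the others. The sperm gene sss-1 was low instead, at 0.717 to 7.02 CPM in the younger-looking libraries and 5.76 to 24.03 CPM in the others, and the eggshell genes perm-2 and perm-4 had at most 0.236 and 1.57 CPM in the younger-looking libraries and at least 0.789 and 1.69 CPM in the others. Other oocyte and eggshell genes went the opposite way to perm-2 and perm-4 in some groups. Among the wild-type DMSO libraries, chs-1 had 8.94 and 16.9 CPM in the younger-looking ones and 1.96 to 4.94 CPM in the rest. For oma-1 the values were 10.9 and 15.1 CPM, against 1.57 to 5.37 CPM. Over all 20 libraries both of these genes overlapped. These single genes were chosen after their values were seen. Over whole lists the libraries overlapped: 19 other sperm genes summed to 94.7 to 286 CPM in the younger-looking libraries and 49.7 to 357 CPM in the others, and 22 oocyte and eggshell genes to 384 to 504 CPM in the younger-looking libraries and 253 to 650 CPM in the others. The sum of 12 general germ-line genes was 652 to 983 CPM in the younger-looking libraries and 88.8 to 604 CPM in the others. The sum of 9 genes of adult onset was 12.5 to 99.1 CPM in the younger-looking libraries and 407 to 3950 CPM in the others. The sum of 11 genes of the cuticle molt did not separate the libraries. It was 2396 to 6610 CPM in the younger-looking libraries and 2344 to 7320 CPM in the others. Single genes of this list did separate them, in opposite directions. mlt-9 had 51.8 to 89.2 CPM in the younger-looking libraries and at least 143 CPM in the others. mlt-7 had at least 62.3 CPM in the younger-looking libraries and less in every other library. Others of the list, such as noah-1, overlapped. These molt genes were also picked after their values were seen. Ribosomal RNA took 2.24% to 3.75% of the counts in the 3 younger-looking libraries lettered c and 5.75% to 22.5% in those lettered a or d. Their part in the sperm gene levels was not tested.

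Males also make sperm, and 10 genes of a list of male genes are in the table. In all 20 libraries together cwp-1, cwp-2 and cwp-3, genes of male neurons, had 2, 5 and 7 counts, pkd-2, lov-1 and try-5 had 67, 51 and 113, and cwp-4, cwp-5 and dmd-3 had 174, 110 and 127. cwp-4 had 0.679 to 2.50 CPM in the younger-looking libraries and at most 0.787 CPM in the others, and cwp-5 had 0.440 to 0.939 CPM in the younger-looking libraries and at most 0.409 CPM in the others. The sum of the 10 genes was 10.7 to 15.5 CPM in the younger-looking libraries and 1.83 to 11.9 CPM in the others. Most of it was mab-3, which also acts outside males, with 2480 counts. The part of males in the sperm gene levels was not tested.

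The first test asked whether F17 changed the sperm genes in wild type. No member was called, that is, 0 of 61 had an adjusted p under 0.05 by edgeR's quasi-likelihood test with Benjamini-Hochberg adjustment, where 128 of 13795 genes (0.928%) were. DESeq2's Wald test and limma-voom called 0 members as well. Without an adjustment, 18 members had p under 0.05 and all 18 were higher with F17, 11 msp, 1 spe, 2 ssp and 4 nspd genes; of all genes, 4.21% were higher and 3.39% lower at that threshold. The estimate was above 0 for all 61 members and for 48.3% of all genes. The median log2 fold change was 0.96 over the members (0.99 for msp, 0.63 for spe, 0.96 for ssp and 1.05 for nspd), against -0.01 over all genes. Because the members move together from library to library and share the same 10 libraries, their common sign is not 61 separate observations.

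The smallest p belonged to ssp-35, with 3.13, 4.71, 3.62, 2.66 and 2.64 CPM in wild type with F17, against 1.99, 1.25, 1.45, 1.66 and 0.902 CPM in wild type with DMSO. The groups did not overlap, and edgeR estimated 1.20 on the log2 scale (SE 0.41, adjusted p = 0.363). nspd-5 was the other member without overlap, with 5.87, 7.90, 6.38, 4.61 and 4.94 CPM in wild type with F17, against 3.87, 2.19, 3.34, 2.04 and 1.24 CPM in wild type with DMSO (1.22, SE 0.45, adjusted p = 0.449 by edgeR). Among all genes, 1.45% were higher without overlap. nspd-1, the most counted nspd gene, had 13.5, 12.8, 9.99, 4.95 and 5.33 CPM with F17, against 5.07, 4.23, 2.44, 4.801 and 2.82 CPM with DMSO, and overlapped through library d of wild type with F17 (1.26, SE 0.47, adjusted p = 0.452 by edgeR).

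Among the msp genes, msp-57 had the smallest p. It had 14.7, 39.1, 24.8, 12.6 and 18.1 CPM in wild type with F17, against 10.4, 10.6, 7.62, 13.7 and 5.19 CPM in wild type with DMSO, so that F17 library d lay below DMSO library d (1.20, SE 0.44, adjusted p = 0.452 by edgeR). The 3 most counted msp genes, msp-81, msp-31 and msp-40, had log2 fold changes of 0.93 (SE 0.51), 0.88 (SE 0.42) and 0.86 (SE 0.46), with adjusted p of 0.750, 0.660 and 0.726 by edgeR. The spread of the msp estimates reached 1.52, for msp-65. At the low end of all members stood spe-39, at 0.06 (SE 0.15, adjusted p = 0.966 by edgeR), whose sign turned when either of 2 single libraries was left out. spe-15 was at 0.65 (SE 0.26, adjusted p = 0.532 by edgeR), spe-4 at 0.21 (SE 0.22, adjusted p = 0.907 by edgeR) and ssp-16 at 0.96 (SE 0.55, adjusted p = 0.773 by edgeR). Of ssp-16's values with F17, 12.7, 5.36, 3.25, 4.91 and 2.86 CPM, library a stood apart, against 5.07, 1.25, 3.97, 3.04 and 1.41 CPM with DMSO.

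The other most counted ssp and nspd genes had similar estimates, of 1.43 for ssp-10 (SE 0.62, adjusted p = 0.598 by edgeR), 0.86 for ssp-34 (SE 0.66, adjusted p = 0.853), 1.15 for nspd-2 (SE 0.52, adjusted p = 0.623) and 0.92 for nspd-7 (SE 0.45, adjusted p = 0.684). All of these groups overlapped.

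**Figure D5:**
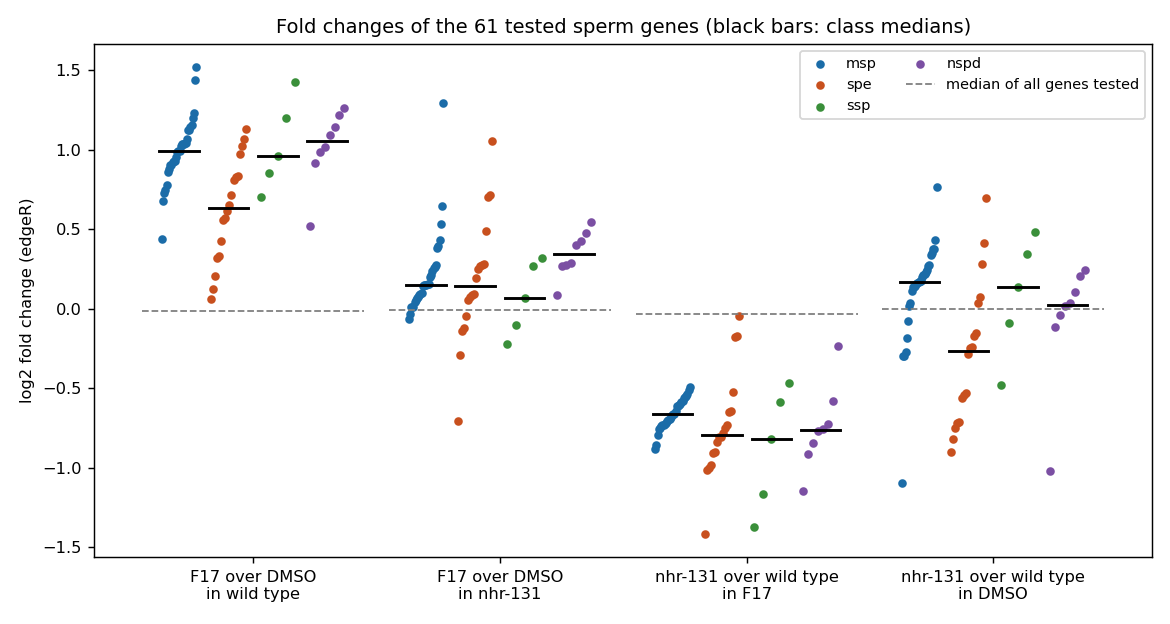
Log2 fold change by edgeR of each tested sperm gene in 4 comparisons (F17 over DMSO in each genotype, nhr-131 over wild type in each treatment), by class; points are genes, black bars class medians and the dashed line the median of all genes tested. All 61 points lie above 0 for F17 in wild type and below 0 for nhr-131 over wild type in F17; 0 points are called in any of the 4.

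Without the 6 younger-looking libraries, leaving 3 libraries with F17 and 3 with DMSO in wild type, 5 members were called by edgeR, all higher with F17, against 6.71% of all genes. They were msp-113 (log2 fold change 1.77, SE 0.44, adjusted p = 0.0295), ssp-10 (1.77, SE 0.45, adjusted p = 0.0299), ssp-35 (1.501, SE 0.42, adjusted p = 0.0433), msp-152 (1.49, SE 0.41, adjusted p = 0.0444) and nspd-5 (1.80, SE 0.52, adjusted p = 0.0469). This is 5 of 63 members tested in that fit, close to the share of all genes. The 6 libraries left out were picked on expression in these same data. The adjusted p of this fit are therefore descriptive and may be too small. With a score of adult-onset genes as a covariate, 4 members were called higher by edgeR, msp-57, msp-76, msp-113 and nspd-2, where 1.99% of all genes were called. The member median was 1.24 without the 6 libraries and 1.04 with the covariate. Library b of wild type with F17 raised it most: without that library the median was 0.69.

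Other genes of the germ line leaned the same way in this comparison. Of 17 further sperm genes tested, all 17 had estimates above 0, with a median of 1.09 and 8 at p under 0.05 without adjustment. Of 22 oocyte and eggshell genes, all 22 were above 0, with a median of 1.01 and 11 at p under 0.05. The 12 general germ-line genes had a median of 0.61, with 0 at p under 0.05. For 14 genes of germ-line sex determination and the switch to oocytes the median was 0.24, and for 9 genes that receive or relay the MSP signal it was -0.05. The 9 adult-onset genes had a median of -0.83, and their summed level was 37.9 to 873 CPM with F17, against 71.5 to 1420 CPM with DMSO. edgeR called 0 genes of any of these lists, and the part of stage in the sperm gene values was not tested.

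In nhr-131 mutants the estimated effects of F17 on the sperm genes lay closer to 0. No member was called (0 of 61, against 66 of 13795 genes or 0.478%), by edgeR, DESeq2 or limma-voom, and 0 members had an unadjusted p under 0.05 in edgeR, where 1.54% of all genes were higher and 1.53% lower. For 0 members were all F17 libraries above all DMSO libraries, against 0.703% of all genes. The estimate was above 0 for 52 of 61 members and for 48% of all genes. The median was 0.15 over the members (0.15 for msp, 0.14 for spe, 0.07 for ssp and 0.34 for nspd), against -0.01 over all genes. The highest single estimate was 1.29, for msp-74 (SE 0.68). msp-74 was scarce: it had 0.765, 0.330, 0.586, 0.195 and 0.584 CPM with F17, against 0.0941, 0.0677, 0, 0.590 and 0.157 CPM with DMSO. The median rests on single libraries, since it was -0.05 when mutant DMSO library c was left out, 0.59 when library d of that group was left out, and 0.03 without the 6 younger-looking libraries.

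The difference between these F17 effects was tested directly, mutant minus wild type. 0 of 61 members were called by edgeR, where 0.246% of all genes were, and DESeq2 and limma-voom called 0 members too. The median was -0.75 over the members, against -0.02 over all genes, and 59 of 61 estimates were below 0. At p under 0.05 without adjustment 1 of 61 members was lower, against 1.75% of all genes, and 0 members were higher, against 1.44% of all genes. The difference uses the libraries of both preceding comparisons, so it adds no separate evidence on either.

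Between genotypes in DMSO the sperm genes had no common direction. edgeR called 0 of 61 members and 4 of all genes (0.029%), DESeq2 and limma-voom also called 0 members, and the estimate was above 0 for 37 of 61 members and 49.2% of all genes. The median was 0.10 over the members, against -0.0047 over all genes, with 0.17 for msp and -0.27 for spe. It was -0.20 by limma-voom, -0.22 with the adult-onset covariate and 0.36 without the 6 younger-looking libraries. spe-6 was the 1 member with an unadjusted p under 0.05 (log2 fold change -0.82, SE 0.38, adjusted p = 0.985 by edgeR), where 1.96% of all genes were lower; 0 members were higher, against 2.21% of all genes. Its values were 1.41, 1.49, 2.78, 2.64 and 2.68 CPM in nhr-131 with DMSO, against 4.55, 2.27, 7.27, 2.99 and 2.42 CPM in wild type with DMSO. The 2 high values were the younger-looking libraries of wild type, and without the 6 libraries the log2 fold change of spe-6 was -0.31.

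Between genotypes in F17 all 61 estimates were below 0, that is, lower in nhr-131 with F17 than in wild type with F17, while 46.7% of all genes had estimates above 0. edgeR called 0 of 61 members, where 177 of 13795 genes (1.28%) were called, and DESeq2 and limma-voom called 0 members. The median was -0.72 over the members (-0.66 for msp, -0.80 for spe, -0.82 for ssp and -0.76 for nspd), against -0.03 over all genes. At p under 0.05 without adjustment 4 members were lower, among them spe-15, ssp-16 and nspd-6, and so were 6.66% of all genes, a share close to that of the members; 0 members were higher, against 8.31% of all genes. spe-15 was the member whose groups did not overlap: it averaged 16.9 ± 3.68 CPM in nhr-131 with F17 and 29.6 ± 5.83 CPM in wild type with F17 (SD, n = 5 each), and edgeR put the difference at -0.81 on the log2 scale (SE 0.26, adjusted p = 0.152). Among all genes, 2.15% were lower without overlap, and 0 members were higher without overlap, against 1.72% of all genes. nspd-6 had 1.35, 1.32, 1.76, 0.925 and 1.40 CPM in nhr-131 with F17, against 1.56, 5.36, 3.21, 3.05 and 1.76 CPM in wild type with F17 (-1.14, SE 0.49, adjusted p = 0.284 by edgeR).

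The count of called members in this comparison changed with the adult-onset covariate. That covariate is the mean log level of the 9 adult-onset genes and no direct measure of stage. These genes themselves had estimates above 0 in this comparison. With the adult-onset score as a covariate edgeR called 18 members lower in nhr-131 with F17, 15 msp, 2 ssp and 1 nspd gene, where 5.17% of all genes were called. Without the 6 younger-looking libraries it called 0 of 63, where 7.55% of all genes were called. Other lists moved in the same comparison. The 9 adult-onset genes had a median log2 fold change of 2.55, all 9 above 0, and summed to 17.3 to 3950 CPM in nhr-131 with F17 and 37.9 to 873 CPM in wild type with F17. The 12 general germ-line genes had a median of -0.87, with 0 above 0, the 22 oocyte and eggshell genes -0.68, with 2 above 0 and 1 called lower by edgeR, the 17 other sperm genes -0.94, with 0 above 0, and the 11 genes of the cuticle molt -0.64, with 1 above 0 and 2 called lower. The part of stage or of these tissues in the sperm gene values was not tested. This comparison shares the group wild type with F17 with the F17 comparison in wild type, so the low estimates here and the high ones there are not independent.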

How the data were processed

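The authors deposited raw read counts by gene from strand-specific poly(A) libraries, made with TopHat2 and HTSeq per the submitters' processing notes. For versions, genome build and annotation: not given in the sources used here. All 20 columns were used. Column letters are not tied to the labels' replicate numbers, so a column carries its group only.

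In R 4.3.3, edgeR 4.0.16 kept genes by filterByExpr (minimum count 10), scaled libraries with TMM factors and fitted 1 robust quasi-likelihood model with 4 group means to all genes (16 residual degrees of freedom). Calls are at a Benjamini-Hochberg adjusted p under 0.05 over 13795 genes. The SE is the absolute log2 fold change over the square root of F. DESeq2 1.42.0 and limma-voom (limma 3.58.1), other scalings and filters, a letter block, an adult-onset covariate and left-out libraries were alternatives, and the procedure was tested on simulated data. The labels describe the libraries as independent biological replicates.

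Members with values are the 3 most counted of each class, called members and the 4 with the smallest p for F17 in wild type; spe genes appear by role. Others (msp-65, msp-74, msp-78, msp-79, spe-6, nspd-6 and genes at the ends of a range or with an unadjusted p under 0.05) were named after their values were seen. Members and lists were chosen with earlier results of these data known. RefSeq (WBcel235) was used for names, chromosomes and neighbours; 16 further RefSeq names of these classes are not row names and were not analysed here. For 1 tested member no values of its own are reported here.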

Additional observations from a re-analysis of the deposited data

Results flagged for a closer look

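In 7 of 92 sets of 5 libraries tested with Dixon's criterion 1 library stood apart, each time as the highest of its group. Chance alone gives about 1 in 20 for independent sets of normal values. CPM were not put on a log scale and the sets share libraries, so that rate is only a rough guide. The summed msp level of wild type with DMSO was 329 CPM in library d, with 177 CPM next, and msp-31 had 21.7 CPM in the same library, with 13.6 CPM next. spe-15 had 39.7 CPM in library b of wild type with F17, with 28.1 CPM next, and 28.1 CPM in library d of nhr-131 with DMSO, with 14.7 CPM next. spe-39 had 25.02 CPM in library c of nhr-131 with F17, with 19.6 CPM next. ssp-16 had 12.7 CPM in library a of wild type with F17, with 5.36 CPM next. msp-74 had 0.590 CPM in library d of nhr-131 with DMSO, with 0.157 CPM next.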

How the results depend on the processing

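Of 1120 values recomputed under alternative settings, 1106 kept their direction and their side of the threshold or moved by less than the spread between replicates. For member medians this spread was 0.55 on the log2 scale, a wide tolerance under which a median near 0 could change sign and count as kept. The 18 members called between genotypes in F17 with the adult-onset covariate were not followed singly, and enter only as 1 changed count. The count of called members for F17 in wild type, 0, became 5 without the 6 younger-looking libraries and 4 with the adult-onset covariate, and the count for nhr-131 against wild type in F17, 0, became 18 with that covariate; the cause was not tested. Single members that passed the threshold under these 2 settings make up another 9 changed values, all higher with F17. The log2 fold change of spe-39 for F17 in wild type turned to -0.0089 without library b of wild type with DMSO and to -0.0013 without library d of wild type with F17, and reached 0.133 at most without any 1 library. Leaving out 1 library at a time, 0 members were called in any comparison; the member median ran from 0.69 to 1.11 for F17 in wild type, -0.05 to 0.59 for F17 in nhr-131, -0.996 to -0.36 for the difference, -0.31 to 0.34 between genotypes in DMSO and -0.90 to -0.43 between genotypes in F17, and the number of genes called over the table from 109 to 150, 60 to 76, 19 to 31, 4 to 5 and 83 to 449. The last range ends without library c of nhr-131 with F17. DESeq2's Wald test called 197, 94, 52, 11 and 537 genes in these comparisons. Whether the column letters pair the libraries was not settled. Same-letter deviations correlated at -0.681 to 0.818 over 30 pairs, with a median of 0.197, against a median of 0.057 for other letters. Of 20 libraries, 6 correlated best with their own letter. With the letter as a replicate block, 0 members were called in each comparison, with medians of 1.06, 0.26, -0.82, -0.01 and -0.81. The ratio of spe to msp counts without spe-15 and spe-39 and the class sums without the 6 libraries were chosen after seeing the data; without the 6, the F17 difference in wild type was 1.24 on the log2 scale for the msp sum and 0.91 for the spe sum, against 0.91 and 0.57 with all libraries. Depth limits the scarce members, since 17 of 78 fell below the filter.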
